A study of Mus musculus with 6 samples.

Results

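The transcripts described here encode 10 heat shock proteins and chaperones: Hspa8, Hspa1a, Hspa1b, Hsph1, Dnajb1, Hsp90ab1, Hsp90aa1, Hspd1, Hspe1 and Hspa5. They were taken by symbol from the deposited table, keeping for each symbol the row with the most reads, and are 10 of 23992 symbols. All 10 passed the filter on low counts and were among the 12720 genes tested. The study sequenced RNA of mouse regulatory T cells (Treg cells), the CD4 T cells that restrain immune responses under the transcription factor Foxp3. It holds 6 libraries in 2 groups of 3, labelled KO and WT, and its title concerns the action of the cytokine TSLP on Treg cells and their identity. All animals were CD45.2 and carried a Cre recombinase fused to yellow fluorescent protein at the Foxp3 locus (Foxp3YFP-Cre/Y), so Cre was present in both groups. Whether it acted only in cells that express Foxp3 was not tested. The KO group also carried Crlf2fl/fl, the floxed gene of the TSLP-specific receptor subunit. No age, treatment or time is given, and the labels do not say how many animals went into a library. By the labels, live CD4+YFP+ cells were sorted from spleen and lymph nodes, while the name of the deposited table mentions lung. Scgb1a1, a marker of lung epithelium, had 23323 to 573926 reads per library. Which tissue the cells came from was not tested. In the descriptions the strain line goes the opposite way, with Crlf2fl/fl given for WT, and groups were taken from the titles.

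Molecular chaperones bind unfolded segments of proteins and help them to fold, to assemble or to be degraded. Cytosolic heat shock genes are switched on by the transcription factor HSF1, which binds repeats of the unit GAA in alternating orientation when misfolded proteins accumulate. Chaperones of the endoplasmic reticulum (ER) are induced by the unfolded protein response through other elements. Constitutive members are abundant in nearly every cell, and the HSP90 system stabilizes kinases and steroid receptors that T cells use in signalling.

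Promoter elements are shown because heat shock and ER stress elements are the known routes of induction of these genes. Not every window searched held an exact match. RefSeq promoters (GRCm38.p6, the same build as mm10) were found for 7 of the 10 genes, each window holding 250 bases before and 50 bases after a start site. No entry was found for Hsp90aa1, Hsp90ab1 and Hspa8. The windows were searched on both strands for the 2-unit heat shock elements GAANNTTC and TTCNNGAA, which each read the same on the other strand, for 3 such alternating units (a motif that contains overlapping 2-unit matches), and for the ER stress element, CCAAT followed after 9 bases by CCACG. Of 32851 promoters of this length, 15.1% held a 2-unit element, 0.603% a 3-unit element and 0.119% an ER stress element. In the 30-base stretches below, read 5′ to 3′ on the gene's own strand, capitals mark the element, with the 9 bases between included for Hspa5.
Hsph1, downstream of the start: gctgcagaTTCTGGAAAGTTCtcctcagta
Hsph1, upstream of the start: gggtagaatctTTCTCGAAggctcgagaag
Hspe1: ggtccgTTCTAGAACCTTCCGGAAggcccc
Hspa1a: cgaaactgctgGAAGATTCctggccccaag
Hspa1b: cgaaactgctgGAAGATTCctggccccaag
Hspa5: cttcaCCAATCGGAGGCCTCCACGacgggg

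The Hsph1 stretches lie at chr5:149636279-149636308 and chr5:149636351-149636380 (minus strand), both overlapping annotated Hsph1 exons. The first holds 3 alternating units, which begin at base 16 of the transcript from the second of the start sites in the RefSeq table. The Hspe1 stretch (chr1:55088053-55088082, plus strand) holds 4 alternating units and begins 95 bases before the start. Hspd1 is transcribed in the opposite direction, and the stretch overlaps an annotated Hspd1 exon. Of the 2 Hspd1 windows, that of start site 2 held the same units and that of start site 1 held no heat shock element. Hspa1a (chr17:34972242-34972271) and Hspa1b (chr17:34959324-34959353), both on the minus strand, carry the same 30 bases with a single 2-unit element. The Hspa5 stretch (chr2:34772020-34772049, plus strand) holds the ER stress element, 65 bases before the start in the RefSeq table. It also overlaps an annotated Hspa5 exon. The Hspa5 window held no heat shock element. The Dnajb1 windows held no exact match of either kind. Elements with a changed letter or other spacing, or outside the windows, would be missed, so a gene without a match may still hold one. A match of letters is a description and shows no binding.

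Library totals ranged from 1439736 reads in WT replicate 2 to 18352401 in KO replicate 3, and the other 4 lay between 7971181 and 12180569. The 10 genes together took 0.656%, 0.583% and 0.676% of the reads in KO replicates 1 to 3, and 0.467%, 0.528% and 0.457% in WT replicates 1 to 3. Crlf2, the targeted gene, was at 3.55 to 9.06 CPM (counts scaled to library size) in KO and at 92.8 to 146 CPM in WT, with a log2 fold change of -4.16 (SE 0.36, adjusted p = 0.0047 by edgeR). The count covers the whole transcript, including exons outside the floxed part. All 5 Treg markers, Foxp3 included (386 to 489 CPM in KO, 200.1 to 474 CPM in WT), had reads in every library. Markers of lung epithelium, 9 of 9 detected in every library and all 9 lower in KO without a call, took 0.247% to 2.02% of the reads in KO and 1.74% to 7.83% in WT. Erythroid markers (7 of 7) took 0.192% to 0.284% in KO and 0.171% to 14.5% in WT, the highest being WT replicate 3. Of 8 macrophage markers, 7 were in the table, with Marco at 0 in some libraries. They took 0.256% to 0.277% in KO and 0.0369% to 0.703% in WT, the highest again being WT replicate 3. Chaperones are made by all these cells, and the part of such cells in the values below was not tested. In such bulk samples fewer cells of a type and less RNA per cell cannot be told apart.

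Of the 10 genes, 1 differed between KO and WT at an adjusted p under 0.05 in edgeR's quasi-likelihood test, here termed called: Hsph1 was higher in KO, with close to 2-fold the WT level. None of the 10 was called lower by edgeR, DESeq2 or limma-voom. Among all tested genes 1.74% were called, 0.755% higher and 0.983% lower in KO, which is 96 and 125 genes, whereas scaling to T cell genes, described with Hsph1, gave 28 and 186. Without adjustment, 4 of the 10 had p under 0.05 toward higher values in KO (Hsph1, Hsp90ab1, Hsp90aa1 and Hspa8) and 1 toward lower values (Hspa5), against 6.74% and 9.13% of all genes. Toward higher values this count was 1 when libraries were scaled to T cell genes and 1 in a fit that took the lung epithelial marker share of each library as covariate. For 6 of the 10 every KO library lay above every WT library, as for 10.4% of all genes, and for Hspa5 every KO library lay below, as for 11.5%. The median log2 fold change of the 10 was 0.26, beside -0.044 over all tested genes and 0.22 over 13 markers shared by T cells (pan-T genes). Of these 13, 12 were positive, 4 had an unadjusted p under 0.05 toward higher values and edgeR called 0. They took 0.767% to 0.870% of the reads in KO and 0.427% to 0.742% in WT, lowest in WT replicate 3, where the Treg markers were also lowest (0.103%).

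**Figure D1:**
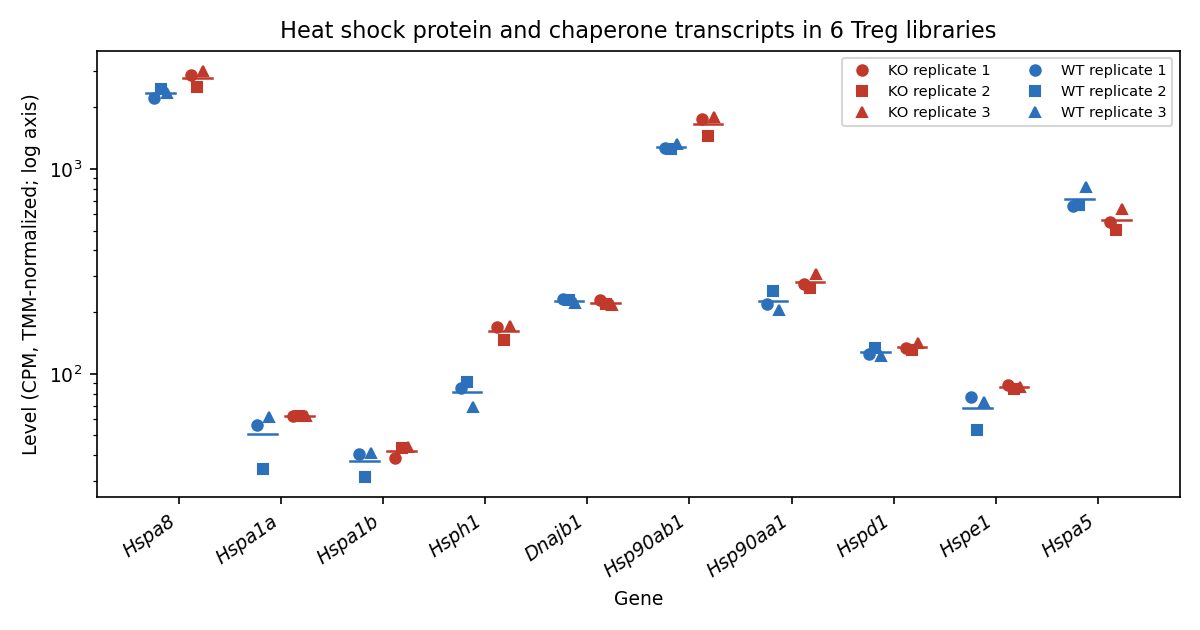
Level of each chaperone transcript in CPM (log axis) in the 3 WT (blue) and 3 KO (red) libraries, with a horizontal line at each group's mean. Hsph1 is the gene with the widest gap between groups, from 68.8 to 91.0 CPM in WT and from 146 to 171 CPM in KO, while the points of Dnajb1 overlap.

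In the cytosol, HSP70 proteins bind and release unfolded chains in a cycle driven by ATP. Hspa8 (chr9:40800984-40810087, plus strand) encodes the constitutive member, HSC70, which also uncoats clathrin vesicles. It measured 2860, 2509 and 3007 CPM in KO replicates 1 to 3, against 2221, 2460 and 2339 CPM in the WT replicates, in the same order. The groups did not overlap, but KO replicate 2 exceeded WT replicate 2 by less than the spread within either group. Its log2 fold change was 0.25 (SE 0.10, adjusted p = 0.285 by edgeR), a difference that did not pass the test, and 0.15 with the lung epithelial covariate.

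Hspa1a (chr17:34969190-34972156, GRCm38, minus strand) and Hspa1b (chr17:34956436-34959238, minus strand) encode the inducible HSP70 and lie near each other. Hspa1a stood at 62.2, 62.4 and 62.5 CPM in KO replicates 1 to 3, a spread of 0.165 CPM (SD, n = 3). This is less than counting error alone gives, with exact 95% Poisson intervals of 57.5 to 67.2, 58.1 to 67.0 and 59.1 to 66.2 CPM. In WT replicates 1 to 3 it stood at 56.0, 34.2 and 61.7 CPM. WT replicates 1 and 3 thus lay just under the KO values, and WT replicate 2 was the low one. The value of WT replicate 2 rested on 50 reads, with an exact 95% Poisson interval of 25.4 to 45.1 CPM that covers counting error only. The log2 fold change of 0.27 (SE 0.21, adjusted p = 0.588 by edgeR) did not pass, and was 0.10 without WT replicate 2 and 0.42 without WT replicate 3. Hspa1b measured 38.7, 43.5 and 44.0 CPM in the KO libraries, against 40.5, 31.5 and 40.9 CPM in the WT libraries, in order of replicate, so the groups overlapped. Its log2 fold change was 0.15 (SE 0.18, adjusted p = 0.746 by edgeR), or 0.066 without WT replicate 2.

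Many short reads cannot be assigned to 1 of the pair. Of 1923 coding bases in Hspa1a, 1915 were identical in Hspa1b, as were 247 of the 250 bases upstream. Of the 50-base words in the Hspa1a transcript, 58.8% also occurred in Hspa1b, and 62.3% of those of Hspa1b occurred in Hspa1a. The read ratio of Hspa1a to Hspa1b was 1.49 ± 0.105 in KO and 1.33 ± 0.217 in WT (SD, n = 3 each), with overlapping groups. When the reads of both were summed, the log2 fold change was 0.23 (SE 0.18, adjusted p = 0.586 by edgeR). An annotated gene on the opposite strand, Gm20481, shares 564 exon bases with Hspa1a, and how the authors treated strand is not given in the sources used here.

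Hsph1 (chr5:149614287-149636376, minus strand) encodes HSP110, a large relative of HSP70 that exchanges its nucleotide and, with HSP70 and a J protein, helps to take apart aggregates. Hsph1 measured 169, 146 and 171 CPM in KO replicates 1 to 3, against 84.9, 91.0 and 68.8 CPM in the WT replicates, in the same order. The lowest KO library lay well above the highest WT library. It rose, averaging 81.6 ± 11.5 CPM in WT but 162 ± 13.8 CPM in KO (SD, n = 3 each), a log2 fold change of 1.00 (SE 0.15, adjusted p = 0.0246 by edgeR). The size of this difference changed little when any 1 library was left out, with log2 fold changes of 0.89 to 1.10. The call itself was lost without KO replicate 1 (adjusted p = 0.171), KO replicate 3 (0.169), WT replicate 1 (0.0621) or WT replicate 2 (0.0526) in edgeR. Scaled so that the 13 pan-T genes had the same mean log2 level in every library, the value was 0.72 (SE 0.17, adjusted p = 0.0816 by edgeR), and with lung epithelial marker share as covariate it was 0.96 (SE 0.20, adjusted p = 0.213 by edgeR), where edgeR called 0 genes in all and 1146 had an unadjusted p under 0.05. No 50-base word of the Hsph1 transcript occurred in a transcript of another gene.

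Dnajb1 (chr8:83608193-83612653, plus strand) encodes HSP40, the J protein that hands substrates to HSP70 and stimulates its ATPase. It measured 228, 220.3 and 216 CPM in KO replicates 1 to 3, against 231, 229.9 and 221 CPM in the WT replicates, in the same order. These 6 values spanned a factor of 1.07, the narrowest of the 10 genes. Dnajb1 had a log2 fold change of -0.037 (SE 0.11, adjusted p = 0.903 by edgeR). Reads of Hsph1 per read of Dnajb1, a ratio within a library that needs no scaling, were 0.732 ± 0.0644 in KO and 0.358 ± 0.0430 in WT (SD, n = 3 each). Ratios within a library were chosen after the values were seen and are given without a test. The genes of HSP110 and HSP40, whose products work on the same substrates, thus stood in different proportions in the libraries of each group.

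HSP90 proteins act after HSP70 on nearly folded clients such as kinases and steroid receptors. Hsp90ab1 (chr17:45567775-45573271, minus strand) encodes the constitutive form. It measured 1756, 1447 and 1796 CPM in KO replicates 1 to 3, against 1262, 1249 and 1320 CPM in the WT replicates, in the same order. The WT libraries lay close together and all 3 KO libraries lay above them. The log2 fold change of 0.38 (SE 0.11, adjusted p = 0.145 by edgeR) did not pass in edgeR or limma-voom, whereas DESeq2 called it (0.39, adjusted p = 0.0208). Scaled to pan-T genes it was 0.071 (SE 0.19, adjusted p = 0.862 by edgeR).

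Hsp90aa1 (chr12:110690605-110702728, minus strand) encodes the inducible form of HSP90. Its values were 274, 264 and 308 CPM in KO replicates 1 to 3, against 220.0, 254 and 205 CPM in the WT replicates. WT replicate 2 came close to KO replicate 2, and the groups did not overlap. This came to a log2 fold change of 0.32 (SE 0.13, adjusted p = 0.274 by edgeR), which was 0.033 with pan-T scaling and 0.21 with the lung epithelial covariate. Hsp90aa1 had 0.170 ± 0.0133 reads per read of Hsp90ab1 in KO and 0.178 ± 0.0243 in WT (SD, n = 3 each), with overlapping groups. The proportion of inducible to constitutive HSP90 transcripts therefore differed by less than the spread between replicates.

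In mitochondria, imported proteins fold inside the HSP60 chamber, encoded by Hspd1 (chr1:55077835-55088243, minus strand), under a lid of HSP10, encoded by Hspe1 (chr1:55088132-55091307, plus strand). These neighbours are transcribed away from each other and share 112 exon bases on opposite strands. Hspd1 measured 134, 131 and 142 CPM in KO replicates 1 to 3, against 125, 133 and 123 CPM in the WT replicates, in the same order, with a log2 fold change of 0.10 (SE 0.12, adjusted p = 0.748 by edgeR). Hspe1 measured 88.2, 84.0 and 86.5 CPM in the KO libraries, against 77.0, 53.4 and 72.9 CPM in the WT libraries, in order of replicate, with a log2 fold change of 0.33 (SE 0.16, adjusted p = 0.374 by edgeR), or 0.017 with pan-T scaling. Hspd1 overlapped between groups and Hspe1 did not. WT replicate 2 was lowest for Hspe1, where 78 reads gave an exact 95% Poisson interval of 42.2 to 66.6 CPM, and without it the log2 fold change of Hspe1 was 0.22. Reads of Hspd1 per read of Hspe1 were 1.57 ± 0.0613 in KO and 1.94 ± 0.489 in WT (SD, n = 3 each), overlapping, the outlying value being 2.50 in WT replicate 2.

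Hspa5 (chr2:34771970-34777547, plus strand) encodes BiP, the HSP70 of the ER, which folds secreted proteins and holds the sensors of the unfolded protein response inactive. It measured 551, 502 and 641 CPM in KO replicates 1 to 3, against 656, 668 and 818 CPM in the WT replicates, in the same order. Hspa5 was thus the 1 gene of the 10 with every KO library below every WT library, although KO replicate 3 came close to WT replicate 1. The log2 fold change was -0.34 (SE 0.14, adjusted p = 0.274 by edgeR) and did not pass. WT replicate 3 was the highest, and without it the value was -0.23. That library had the largest shares of erythroid, macrophage, B cell and neutrophil markers. Scaled to pan-T genes it was -0.67 (edgeR adjusted p = 0.203) and with the lung epithelial covariate -0.50 (edgeR adjusted p = 0.397). Like Hsph1, Hspa5 shared no 50-base word with another gene.

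**Figure D2:**
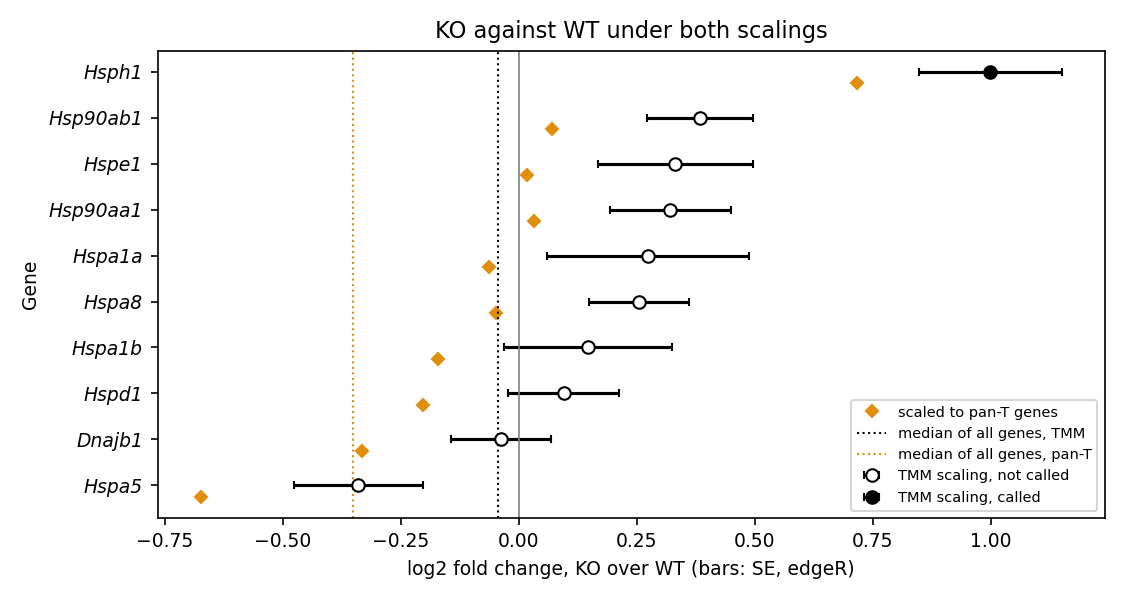
The log2 fold change of each gene between KO and WT, with its SE in edgeR after TMM scaling (circles, filled where called) and its value when libraries were scaled to pan-T cell genes (diamonds). Dotted lines mark the median of all tested genes under each scaling, -0.044 and -0.35: the diamonds lie further left by about the same step as the medians, and Hspa5 is lowest and Hsph1 highest under both.

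Scaling set the sign of several small differences. Pan-T scaling moved the median of all genes from -0.044 to -0.35 on the log2 scale, and it turned Hspa1a, Hspa1b, Hspa8 and Hspd1 to negative values of -0.049 to -0.20. A scaling moves nearly all genes by a similar step, so values relative to the median of all genes had to be alike. They are no test of the scaling. Hsph1 lay 1.04 above that median with TMM and 1.07 above it with pan-T scaling. Hspa5 lay at -0.30 and -0.32 from it, and the median of the 10 genes at 0.31 and 0.30. Reads of Hsph1 per read of Hspa5 were 0.288 ± 0.0207 in KO and 0.117 ± 0.0284 in WT (SD, n = 3 each), and those of Hspa8 per read of Hspa5 were 4.96 ± 0.249 and 3.31 ± 0.418.

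Levels of different genes were compared as RPKM, the scaled count divided by transcript length. Hspa8 was highest in every library, at 1056 to 1429 RPKM, followed by Hsp90ab1 at 498 to 716 and Hspa5 at 192 to 313. Hspe1 (69.5 to 115), Dnajb1 (95.3 to 102) and Hsp90aa1 (71.8 to 108) overlapped in level and cannot be ordered beyond their spread. Hspd1 lay at 52.6 to 60.8 RPKM and Hsph1 at 19.8 to 49.0. Hspa1a (12.2 to 22.4) overlapped with Hsph1, lying above it in WT replicate 3 (22.0 against 19.8), and Hspa1b (11.2 to 15.6) overlapped with Hspa1a. Constitutive members of the cytosol therefore exceeded the inducible HSP70 genes by far in these cells. Levels of some genes, the inducible HSP70 genes among them, depend on how reads with several possible origins were counted. Of the 50-base words of Hspa8, 74.8% also occurred in transcripts of other genes, as did 66.3% for Hspa1a and 62.3% for Hspa1b. The shares were 58.5% for Hsp90aa1, 44.8% for Hspd1 and 44.8% for Hspe1, against 4.49% for Hsp90ab1 and 0.441% for Dnajb1.

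**Figure D3:**
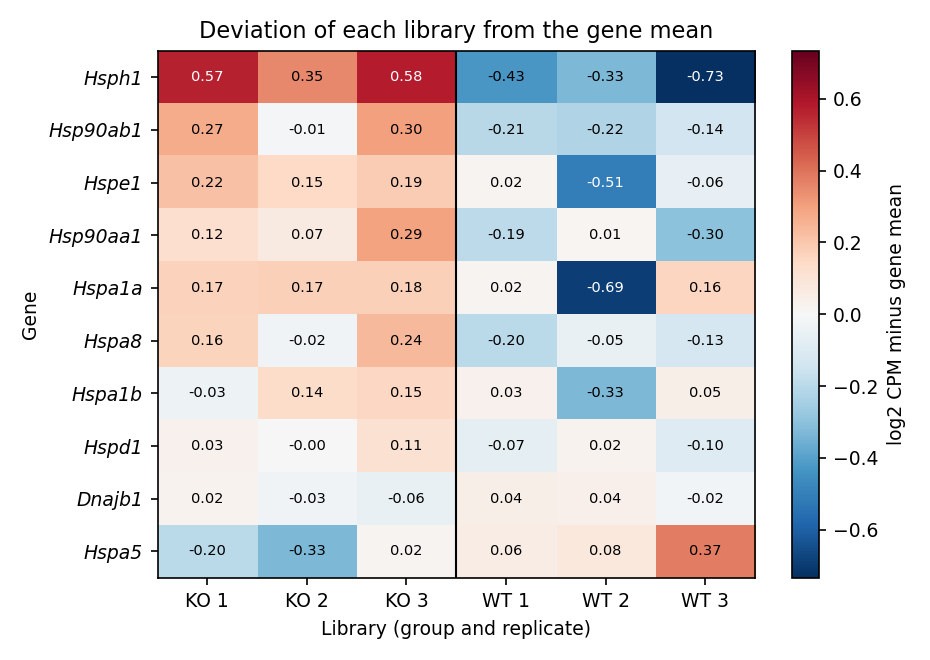
Deviation of log2 CPM from the gene's mean over the 6 libraries, by gene (rows) and library (columns, KO left of the line). Hsph1 is positive in all KO and negative in all WT libraries, Hspa5 runs the other way except for 0.020 in KO replicate 3, and WT replicate 2 is the low library for Hspa1a (-0.69), Hspe1 (-0.51) and Hspa1b (-0.33).

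The genes did not form 1 common pattern over the libraries. Likeness was measured as the root mean square difference between 2 genes' deviations from their own means (log2 CPM, 6 libraries), where small values mean alike. Hsp90ab1 and Hspa8 were among the closest at 0.086, as were Dnajb1 and Hspd1 at 0.088, Hsp90aa1 and Hspa8 at 0.089, and Hspa1a and Hspe1 at 0.118. Hsph1 and Hspa5 were the farthest apart, at 0.705. The deviation of WT replicate 2 in Hspa1a, Hspa1b and Hspe1 was not shared by Hsph1 (-0.33 against -0.43 and -0.73 in the other WT libraries). Shallow depth and 3 low values thus fell in the same library, and the part of depth was not tested.

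Among 7042 other genes with a mean of at least 20 CPM, the 4 closest to Hsph1 were Aff4 (difference 0.068), Rab20 (0.070), Nr3c1 (0.081) and Ptpn22 (0.101). Nr3c1 encodes the glucocorticoid receptor, an HSP90 client, and Ptpn22 a phosphatase that dampens T cell receptor signalling. Aff4, a scaffold of the super elongation complex, averaged 99.2 ± 14.9 CPM in WT against 192 ± 8.09 CPM in KO (SD, n = 3 each). Their log2 fold changes were 0.96 (SE 0.15) for Aff4, 0.98 (SE 0.22) for Rab20, 0.94 (SE 0.14) for Nr3c1 and 0.92 (SE 0.15) for Ptpn22, and edgeR called all but Rab20 (adjusted p = 0.0711). The calls of Aff4, Nr3c1 and Ptpn22 were lost in the same 4 fits without 1 library as that of Hsph1, and those of Aff4 and Nr3c1 also without KO replicate 2. The 4 closest to Hspa5 were Eci2 (0.046), 4632428N05Rik (0.050), Syngr2 (0.052) and Bysl (0.052), none of them called, with log2 fold changes of -0.27 to -0.34. These genes were chosen by likeness to a pattern, so their agreement with it is no separate result.

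The wider chaperone network was read from 9 lists, of which 136 distinct genes were in the table and 126 were tested. Of these 126, edgeR called 2, Stip1 and Ero1l, both higher in KO, and none lower, a share near the 1.74% called among all genes. At an unadjusted p under 0.05, 16 (12.7%) leaned higher and 4 (3.17%) leaned lower, beside 6.74% and 9.13% of all genes. The median log2 fold change over the 126 was 0.049. DESeq2 called more members in some lists, as given with each, and it called 863 genes in all, beside 221 by edgeR.

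Stip1 encodes HOP, the co-chaperone that bridges the carboxy termini of HSP70 and HSP90. Stip1 measured 235, 211 and 229 CPM in KO replicates 1 to 3, against 127, 151 and 124 CPM in the WT replicates, in the same order, with no overlap. It rose by a log2 fold change of 0.76 (SE 0.13, adjusted p = 0.0330 by edgeR). The call was lost when any 1 library other than WT replicate 3 was left out (adjusted p of 0.0526 to 0.197) and with pan-T scaling (0.46, edgeR adjusted p = 0.235) or the lung epithelial covariate (0.70, edgeR adjusted p = 0.290). Of 14 tested genes of the HSP90 system, Stip1 was the 1 called, and the median was 0.16. Without adjustment 5 had p under 0.05, all toward higher values, beside 6.74% of all genes. DESeq2, with 863 calls over all genes, called 3 of the 14, and limma-voom called 2. Chosen after its values were seen, Fkbp5, an HSP90 partner induced by glucocorticoids, measured 273, 238 and 304 CPM in the KO libraries, against 122, 184 and 89.5 CPM in the WT libraries, in order of replicate (log2 difference 1.06, SE 0.25, adjusted p = 0.0789 by edgeR).

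Of 17 other HSP70 proteins and exchange factors, edgeR called 0 and DESeq2 called 2, beside its 863 calls over all genes. In edgeR 13 had a positive log2 fold change (median 0.088), as did 5823 of all 12720 genes, and 4 an unadjusted p under 0.05, all toward higher values, beside 6.74% of all genes. St13, the HSP70-interacting protein, averaged 132 ± 35.5 CPM in KO against 78.9 ± 11.6 CPM in WT (SD, n = 3 each), with a log2 fold change of 0.74 (SE 0.22, adjusted p = 0.146 by edgeR). Hspa4, a relative of Hsph1 in the HSP110 family, averaged 188 ± 6.02 CPM in KO against 147 ± 6.16 CPM in WT (SD, n = 3 each), with a log2 fold change of 0.36 (SE 0.11, adjusted p = 0.164 by edgeR). Scaled to pan-T genes, St13 was at 0.45 and Hspa4 at 0.052 on the log2 scale. Reads of Hsph1 per read of Hspa4 were 0.860 ± 0.0697 in KO and 0.559 ± 0.0988 in WT (SD, n = 3 each), without overlap.

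HSF1 is the activator of the heat shock genes, and its own transcript leaned higher. Hsf1 measured 125, 101 and 115 CPM in KO replicates 1 to 3, against 77.6, 69.1 and 75.3 CPM in the WT replicates, in the same order. The groups did not overlap, and the log2 fold change of 0.61 (SE 0.14, adjusted p = 0.0769 by edgeR) missed the threshold in edgeR, while DESeq2 called it (adjusted p = 0.0058). Over 20 alternative ways of processing, the log2 fold change of Hsf1 ran from 0.30 to 0.70, and DESeq2 alone called it. The activity of the HSF1 protein was not measured. Hsbp1, an inhibitor of HSF1, had 0.11 (SE 0.12, adjusted p = 0.723 by edgeR). Only 3 of the 7 genes of this list were tested.

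J proteins, the chaperonin TRiC with prefoldin, and the mitochondrial list had no called gene in edgeR. Of 33 J proteins, 3 (9.09%) had an unadjusted p under 0.05, all toward higher values, a share near the 6.74% of all genes. Their median was -0.091, and 0.065 without WT replicate 3, and DESeq2 and limma-voom called 0. Dnajc9, a histone co-chaperone, had a log2 fold change of 0.47 (SE 0.14, adjusted p = 0.147 by edgeR) and Dnajb2 of 0.81 (SE 0.27, adjusted p = 0.198 by edgeR). Of 13 TRiC and prefoldin subunits, which fold actin and tubulin, 1 leaned each way without adjustment, beside 6.74% (higher) and 9.13% (lower) of all genes. These were Tcp1 at 0.46 (SE 0.14, adjusted p = 0.154 by edgeR) and Pfdn1 at -0.64 (SE 0.17, adjusted p = 0.119 by edgeR). DESeq2 called Pfdn1 lower (adjusted p = 0.0398), as did edgeR without WT replicate 3 (0.0383) and with pan-T scaling (0.0496). None of 14 mitochondrial chaperones and proteases had an unadjusted p under 0.05, and DESeq2 and limma-voom called 0. Afg3l2, a protease of the inner membrane, stood at 0.34 (SE 0.16, adjusted p = 0.352 by edgeR) and Htra2 at 0.23 (SE 0.17, adjusted p = 0.569 by edgeR).

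Of 18 ER chaperones tested, 14 lay below 0 on the log2 scale, as did 6897 of all 12720 genes. Their median was -0.19, or 0.0065 without WT replicate 3. Toward lower values 2 (11.1%) had an unadjusted p under 0.05, beside 9.13% of all genes. The 1 call was in the other direction: Ero1l, the oxidase that drives disulfide formation, rose, averaging 48.8 ± 4.60 CPM in WT but 91.1 ± 6.23 CPM in KO (SD, n = 3 each). On the log2 scale Ero1l rose by 0.91 (SE 0.15, adjusted p = 0.0288 by edgeR), and the call was lost without any 1 library other than WT replicate 3 and with pan-T scaling (0.59, edgeR adjusted p = 0.238) or the lung epithelial covariate (0.81, edgeR adjusted p = 0.273). Calr and Sdf2l1, chosen after their values were seen, had -0.56 (SE 0.14, adjusted p = 0.104 by edgeR) and -0.60 (SE 0.20, adjusted p = 0.203 by edgeR). DESeq2 called 1 of the 18 lower. Hsp90b1, the ER form of HSP90, stood at -0.12 (SE 0.17, adjusted p = 0.787 by edgeR). Of 17 ER stress sensors and targets edgeR, DESeq2 and limma-voom called 0. In edgeR, 1 had an unadjusted p under 0.05 in each direction, beside 6.74% (higher) and 9.13% (lower) of all genes. These were Asns at 0.77 (SE 0.26, adjusted p = 0.198 by edgeR) and Chac1 at -1.62 (SE 0.60, adjusted p = 0.240 by edgeR). Chac1 averaged 1.61 ± 0.775 CPM in KO against 4.93 ± 1.25 CPM in WT (SD, n = 3 each).

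Small heat shock proteins, which hold unfolded proteins without ATP and are typical of muscle, lens and epithelium, varied widely between libraries. Among the 6 tested, 5 lay below 0 on the log2 scale (median -0.84), 0 had an unadjusted p under 0.05 and edgeR, DESeq2 and limma-voom called 0. Hspb1 (HSP27) measured 13.0, 20.01 and 4.33 CPM in KO replicates 1 to 3, against 59.2, 6.84 and 16.0 CPM in the WT replicates, and is named after its values were seen. It overlapped between groups, and the other 5 were at or below 28.5 CPM in every library. Cryab averaged 1.28 ± 1.07 CPM in KO against 5.69 ± 3.04 CPM in WT (SD, n = 3 each), and KO replicate 2 held 1 read. Hspb8 measured 4.28, 4.64 and 0.313 CPM in the KO libraries, against 28.5, 2.05 and 6.05 CPM in the WT libraries, in order of replicate. WT replicate 1, the highest for Hspb1 and Hspb8, was also the library with the largest lung epithelial share, at 7.83%, and KO replicate 3, the lowest for both, had the smallest, at 0.247%. With that share as a covariate the log2 fold change of Hspb8 turned from -2.06 to 0.25, while that of Cryab went from -2.11 to -2.29. Cryab was highest in WT replicate 2, at 7.53 CPM, where the lung epithelial share was 1.74%. The part of epithelial cells in the values of these genes was not tested.

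**Figure D4:**
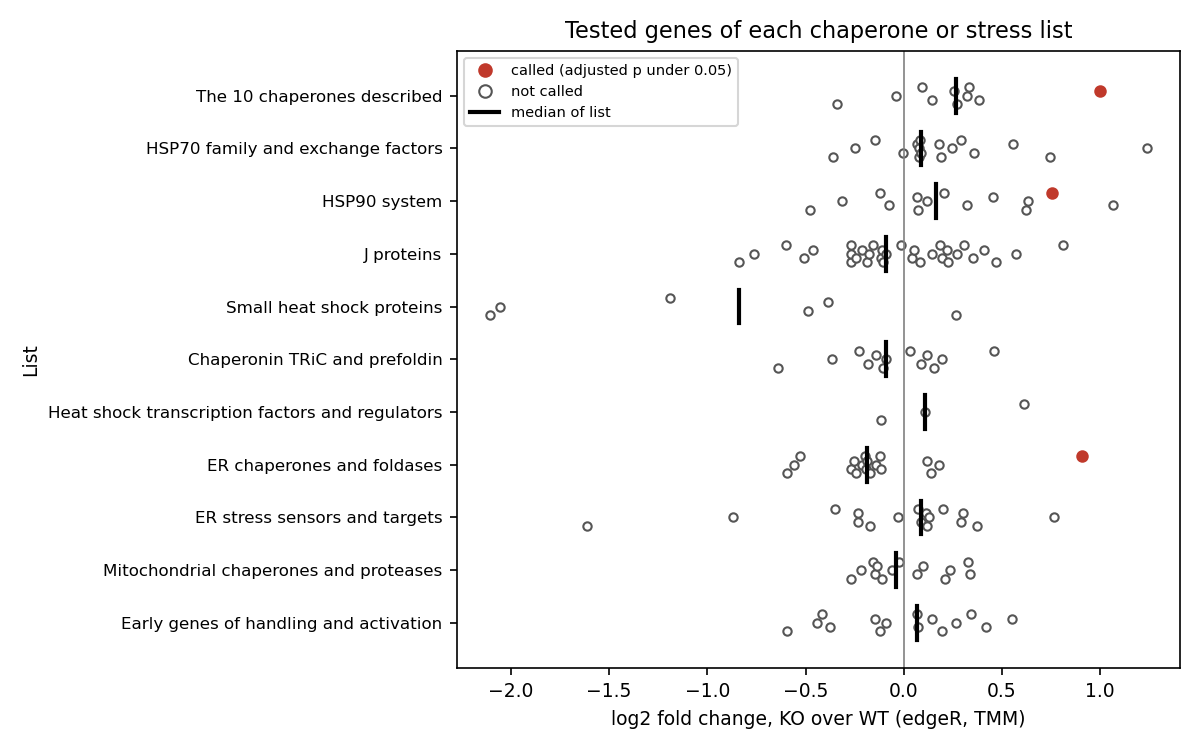
The log2 fold change of each tested gene in the 10 chaperones described and in the other chaperone and stress lists, with red points for called genes and a black bar at the median. The called points are Hsph1, Stip1 and Ero1l, all on the right, and the medians run from -0.84 for small heat shock proteins to 0.26 for the 10 genes described.

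Early genes, which respond quickly to handling and activation, were read beside the chaperones. Of 15 tested, edgeR, DESeq2 and limma-voom called 0, and the median was 0.065. Without adjustment 2 had p under 0.05, both toward higher values, beside 6.74% of all genes. Dusp1, a phosphatase of MAP kinases, averaged 2063 ± 281 CPM in KO against 1405 ± 439 CPM in WT (SD, n = 3 each; log2 difference 0.55, SE 0.21, adjusted p = 0.254 by edgeR). Junb, a subunit of AP-1, had 0.42 (SE 0.16, adjusted p = 0.255 by edgeR). Without WT replicate 3 the median of the 15 was 0.40 and edgeR called 4 of them higher, Dusp1 among them (0.84, edgeR adjusted p = 0.0117). In that fit edgeR called 518 of 12932 genes in all, 242 of them higher. The part of handling in the chaperone values was not tested.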

How the data were processed

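The authors deposited a table of raw read counts, 1 row per RefSeq transcript, which also holds transcript lengths (per the file headers and from the whole-number values). Tools named in the submitters' processing notes are bcl2fastq, TopHat2 2.2.1 and Bowtie2 2.2.6, with mm10; what program counted the reads, and how strand and reads with several origins were handled, is not given in the sources used here. Of its 31682 rows, several belong to the same symbol for 4343 symbols, and 0 per-sample columns were left unused.

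For each symbol the row with the most reads was kept. Genes passing filterByExpr (minimum count 10, total 15) were tested, KO against WT without a block, by edgeR 4.0.16 (TMM, robust glmQLFit, glmQLFTest; R 4.3.3) with Benjamini-Hochberg adjustment over 12720 genes, checked on simulated counts. CPM are TMM-scaled, RPKM divide them by the deposited length, and SE is the absolute log2 fold change over the square root of F. Alternatives were other scalings, filters, rows, DESeq2 1.42.0, limma-voom 3.58.1, a block, summed Hspa1a and Hspa1b, removed erythroid genes and each library left out. The lung epithelial covariate was added after the data were seen. Library pairs differed beyond sampling noise (chi-square per degree of freedom of at least 12.7). Whether replicates are separate animals is not in the labels, and p-values may thus measure technical spread alone.

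The 10 genes and the lists were chosen with earlier results of these data known. Named besides the 10, Crlf2 and Foxp3 were up to 4 called genes per list or, with none called, the 2 of smallest p, and the 4 genes most like Hsph1 and Hspa5; others are marked. Words of 50 bases were compared over GENCODE vM21 transcripts on both strands. Gene coordinates are GRCm38. Protein sequences were not used here.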

Additional observations from a re-analysis of the deposited data

How the results depend on the processing

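Of 20 alternatives, Hsph1 kept its direction in all and its call in 13. The call was lost with pan-T scaling (0.72), with the replicate block (1.00, adjusted p = 0.0691 by edgeR), with the lung epithelial covariate (0.96) and in 4 of the 6 fits without 1 library (0.89 to 1.10 over all 6 on the log2 scale), which leave fewer samples. Stip1 (0.76, adjusted p = 0.102 by edgeR) and Ero1l (0.91, adjusted p = 0.0885 by edgeR) also lost their calls with the replicate block. Hsp90ab1 was called with DESeq2 (0.39). Pan-T scaling turned Hspa1a (-0.062), Hspa1b (-0.17), Hspa8 (-0.049), Hspd1 (-0.20), Hsbp1 (-0.19) and Htra2 (-0.080), and the removal of erythroid genes turned Dnajb1 (0.011); the pan-T shifts go with that of the median of all genes. Foxp3 turned without WT replicate 3 (-0.067, with up to 0.47 in the other such fits) and Hspb8 with the lung epithelial covariate (0.25). The cause was not tested.

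The number of genes called was 221 and ranged from 4 to 518 in fits without 1 library (higher 2 to 242, lower 2 to 276): 4, 124 and 7 when KO replicate 1, 2 or 3 was left out, and 33, 22 and 518 when WT replicate 1, 2 or 3 was. It was 863 with DESeq2 (367 higher, 496 lower), 123 with the replicate block (32 higher) and 0 with the lung epithelial covariate (0 higher, 0 lower; 1146 at an unadjusted p under 0.05). Higher calls numbered 28 with pan-T scaling, beside 186 lower, and 63 without robust estimation; lower calls numbered 221 with limma-voom sample weights. Of the 10 chaperones, 2 were called higher with DESeq2, 0 with pan-T scaling, the replicate block or the lung epithelial covariate, and 0 to 1 in fits without 1 library. At an unadjusted p under 0.05, 2 of the 10 leaned higher with the replicate block, beside 4 without it. Their median moved to -0.056 with pan-T scaling and 0.19 with the lung epithelial covariate, and was 0.18 to 0.31 in fits without 1 library. Same-numbered libraries did not deviate together (r across genes of 0.077, -0.144 and -0.046 for numbers 1 to 3), so the block does not rest on a known pairing. WT replicate 2, with 1439736 reads, limits the precision of Hspa1a, Hspa1b and Hspe1.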
